A study of Homo sapiens with 16 samples.

Results

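MM1S is a human multiple myeloma cell line that is sensitive to glucocorticoids, and the data described here are the transcriptome of MM1S after dexamethasone (Dex) alone. The members were the 4 of 16 libraries of the series that came from MM1S treated for 48 h with vehicle (2 libraries) or with 1 μM Dex (2 libraries), and all genes of the count table were considered, both those that rose and those that fell. The study asked how TAK-981, an inhibitor of the enzyme that activates the small protein modifier SUMO, changes the response of myeloma cells to Dex. The other 12 libraries came from MM1S given 0.1 μM TAK-981 or both drugs (combo), and from the glucocorticoid-resistant line MM1R given the same 4 treatments, in duplicate for 48 h. Total RNA was sequenced after removal of ribosomal RNA. Each condition is represented by 1 cell line in culture, and no source says that the 2 libraries of a group came from separate cultures, so the p values measure only the spread between these libraries.

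Dex is a synthetic glucocorticoid. It enters the cell and binds the glucocorticoid receptor (GR, encoded by NR3C1), which is held in the cytoplasm by chaperones until ligand binds and then moves to the nucleus, where it activates some genes and represses others. In lymphoid cells, including myeloma cells, glucocorticoids are known to slow proliferation and to induce apoptosis.

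Dex changed the mRNA level of a large share of the genes measured. Of 14215 genes with enough reads for a test, out of 23354 in the table, 6017 (42.3%) differed between Dex and vehicle at an adjusted p under 0.05 by edgeR's quasi-likelihood F test, and such genes are named called in what follows. Of the 14215 genes, 2954 (20.8%) were called higher with Dex and 3063 (21.5%) were called lower. The changes were mostly small, with a median log2 fold change of 0.42 among the genes called higher and of -0.59 among those called lower. A called change of at least 1 on the log2 scale was found for 1081 genes (7.60%), of which 348 (2.45%) were higher and 733 (5.16%) were lower. Genes called higher held 25.2% of the normalised counts in vehicle libraries and 33.7% in Dex libraries, and those called lower held 26.96% and 18.4%.

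**Figure D1:**
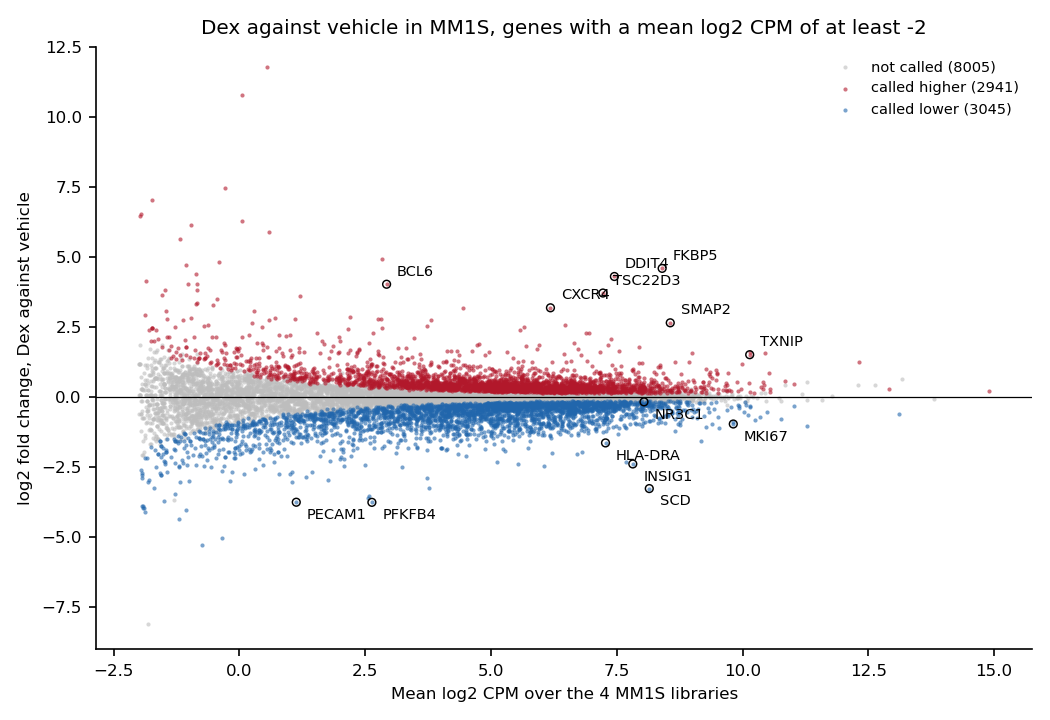
Each point is a gene, placed by its mean log2 normalised count (CPM, counts scaled to the library's effective size) over the 4 MM1S libraries on the x axis and its log2 fold change with Dex on the y axis, for genes with a mean log2 CPM of at least -2. FKBP5 and DDIT4 stand high among well-measured genes, SCD and INSIG1 stand low, and NR3C1 lies close to 0.

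The 4 libraries held between 18880189 and 20644510 counts, and their TMM scaling factors lay between 0.997 and 1.03. The Dex libraries differed more from each other than the vehicle libraries did: the chi-square per degree of freedom over genes was 19.2 between the Dex libraries and 5.18 between the vehicle libraries, and no pair of libraries looked like a repeat deposit of the same library. Markers of plasma cells were present, with SDC1 (CD138) at 495 and 500.4 CPM in the vehicle libraries and XBP1 at 865 and 832 CPM. Of 36 markers of T, NK, myeloid, erythroid, stromal, endothelial, epithelial and mature B cells, 35 were in the table. Of these, 10 (among them CD3D, CD8B, CDH5, COL3A1, HBA1, HBA2, LUM, NKG7 and S100A8) had no count in any of the 4 libraries, and 27 had at most 10 counts in any library. Others of the same lineages had counts, among them CD3E (65 and 61 with vehicle, 43 and 35 with Dex), HBB (50 and 61, 25 and 36), GNLY (14 and 19, 26 and 32) and COL1A1 (18 and 18, 3 and 1). The summed counts of the 35 were 371 and 302 with vehicle and 146 and 171 with Dex. Most of that drop was in PECAM1, and without it the sums were 178 and 181 with vehicle and 139 and 156 with Dex. In these bulk samples of 1 cell line, fewer MM1S cells that express a gene and less of its RNA per cell cannot be told apart.

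The genes that rose most clearly included classical targets of the GR. FKBP5, a co-chaperone that limits hormone binding by the GR, was at 68.6 and 68.95 CPM in the vehicle libraries and at 1725 and 1602 CPM in the Dex libraries. This was the smallest p of all genes, with a log2 fold change of 4.60 ± 0.07 (SE) and an adjusted p of 1.22e-18. TSC22D3 (GILZ), a leucine zipper protein that mediates anti-inflammatory effects of glucocorticoids, was at 38.3 and 44.4 CPM with vehicle and at 501 and 584 CPM with Dex (log2 fold change 3.71 ± 0.09, adjusted p 1.38e-15). For both genes every Dex library lay far above every vehicle library.

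DDIT4 (REDD1), an inhibitor of mTORC1 signalling, was at 40.2 and 38.6 CPM with vehicle and at 721 and 837 CPM with Dex, a log2 fold change of 4.31 ± 0.21. CXCR4, the receptor for the marrow homing chemokine CXCL12, was at 25.04 and 22.97 CPM with vehicle and at 222 and 216 CPM with Dex (3.19 ± 0.07). ZBTB16 (PLZF), a zinc finger repressor, was at 0.987 and 1.54 CPM with vehicle and at 38.7 and 37.4 CPM with Dex (4.92 ± 0.15). The BCL6 repressor, which opposes plasma cell differentiation in germinal centre B cells, was at 2.07 and 1.59 CPM with vehicle and at 31.7 and 28.4 CPM with Dex (4.03 ± 0.16). The Dex and vehicle libraries were far apart for all 4 genes. Their adjusted p values were 1.19e-08 for DDIT4, 2.51e-16 for CXCR4, 2.14e-14 for ZBTB16 and 6.78e-13 for BCL6.

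Other leading genes are less often used as markers of glucocorticoid action. SMAP2, a regulator of Arf GTPases in vesicle traffic, was at 153 and 149 CPM with vehicle and at 929 and 967 CPM with Dex (log2 fold change 2.65 ± 0.06, adjusted p 1.73e-16). FBXO32 (atrogin-1), a ubiquitin ligase subunit of muscle wasting, was at 39.4 and 33.2 CPM with vehicle and at 218 and 216 CPM with Dex (2.58 ± 0.07, adjusted p 4.77e-15). ZC3H12A (Regnase-1), a ribonuclease that degrades inflammatory mRNAs, was at 55.4 and 56.6 CPM with vehicle and at 267 and 279.6 CPM with Dex (2.29 ± 0.07, adjusted p 4.05e-14). The remaining leading higher genes were PFKFB2 (2.06), NUDT16 (2.27), FAR2 (2.49), GRHL3 (1.86), NUAK1 (1.79), PTK2B (1.61), SLC22A23 (3.19) and DPEP1 (3.61), given with their log2 fold changes. Only called genes whose 2 groups did not overlap could enter the leading genes, so their lack of overlap is not a result. The groups did not overlap for 68.8% of all genes tested, for 2952 of the 2954 genes called higher and for 3061 of the 3063 called lower. For any called gene below, a lack of overlap is therefore no further result.

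**Figure D2:**
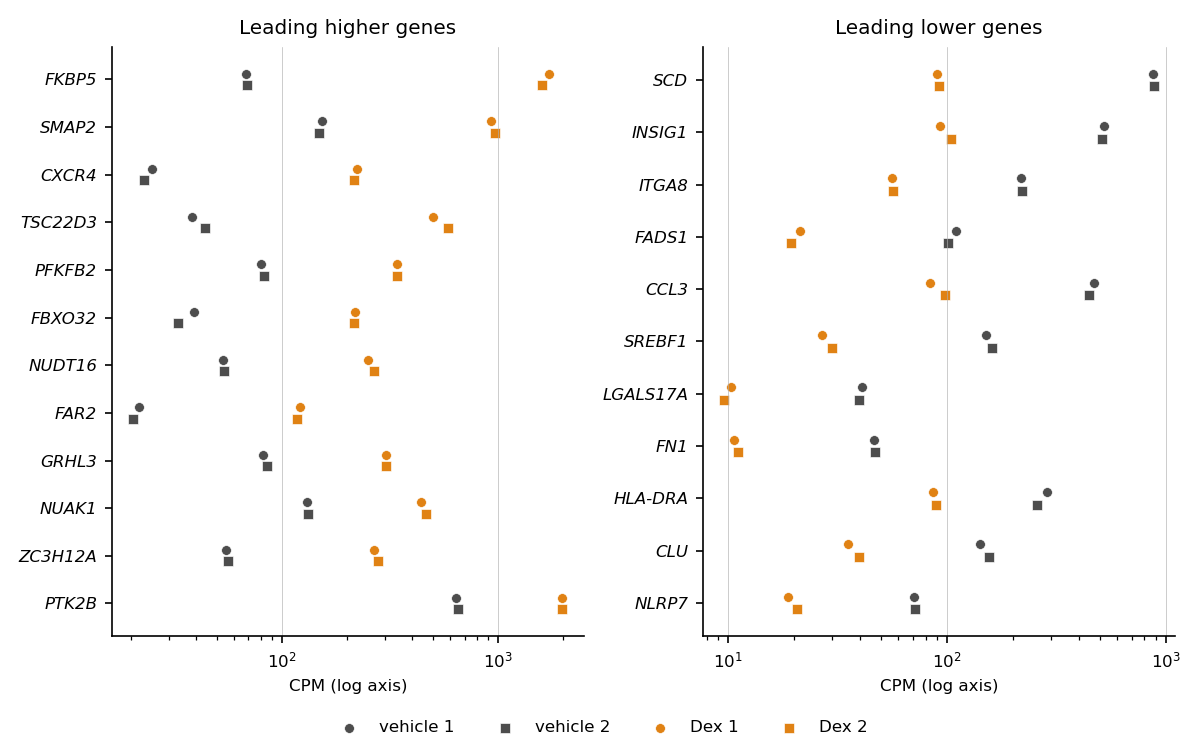
CPM in each of the 4 MM1S libraries on a log axis, for leading higher genes (left) and leading lower genes (right), ordered by p. The 2 libraries of a group lie close together. The groups do not overlap for any gene shown, which was a condition for the choice of leading genes. FKBP5 runs from 68.6 CPM with vehicle to 1725 CPM with Dex, and SCD from 882 CPM with vehicle to 89.9 CPM with Dex.

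A few genes were almost silent without Dex. DAAM2, a formin-family regulator of the actin cytoskeleton and WNT signalling at chr6:39760159-39872653 (hg19), had 0 counts in both vehicle libraries and 429 and 402 counts in the Dex libraries. Against a floor of 3 counts over the vehicle group this is at least 289-fold higher. C1QB, a chain of complement C1q, had 0 counts in both vehicle libraries and 176 and 242 counts with Dex, which is at least 145-fold higher against the same floor.
IL7R, the alpha chain of the interleukin-7 receptor, had 0 and 1 counts with vehicle and 111 and 100 counts with Dex, a ratio of 220 with an exact 95% counting interval of 39.1 to 8729. TRIM31, a ubiquitin ligase, had 1 and 2 counts with vehicle and 97 and 145 with Dex, a ratio of 84.1 (28.4 to 411). Among called genes these were the 4 with at most 3 counts over the vehicle libraries and at least 100 over the Dex libraries, and no gene met the reverse rule. The choice of these genes followed a look at their values, and the intervals and floors cover counting error only.

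The list of 47 glucocorticoid-induced genes was drawn up with earlier results of these data known, so its count is no independent evidence of its direction. Of its 39 tested members, 28 were called higher and 3 lower, with a median log2 fold change of 0.59 against 0.01 over all genes tested. Besides those above, the members called higher were led by PIK3IP1 (log2 fold change 1.93), which restrains PI3K, by KLF9 (1.88), a Krüppel-like repressor, by TXNIP (1.51), which binds thioredoxin and limits glucose uptake, and by the NF-kB inhibitor NFKBIA (1.25). RASD1, the small GTPase named for its induction by Dex, was at 1.08 and 0.666 CPM with vehicle and at 4.20 and 4.03 CPM with Dex (2.21 ± 0.31, adjusted p 1.1e-05). PER1, a clock gene, rose by a smaller amount, from 27.8 and 27.99 CPM to 33.8 and 34.4 CPM (0.29 ± 0.08, a call lost with offsets for GC content, adjusted p 0.095), and DUSP1, which inactivates MAP kinases, had a log2 fold change of 0.48.
Several textbook targets were not called. SGK1, a kinase induced by corticosteroids in kidney and other tissues, was at 84.7 and 75.9 CPM with vehicle and at 73.2 and 77.7 CPM with Dex, so the groups overlapped (-0.09 ± 0.06, adjusted p 0.26). BIRC3, an inhibitor of apoptosis, was at 223 and 211 CPM with vehicle and at 223 and 193 CPM with Dex (-0.06, adjusted p 0.67), but with offsets for GC content the direction turned and it was called higher (0.12, adjusted p 0.027). ANXA1, the anti-inflammatory annexin, lay between 0.622 and 1.08 CPM in the 4 libraries and was not called (adjusted p 0.47).

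NR3C1 itself was at 283 and 277 CPM in the vehicle libraries and at 257 and 239 CPM in the Dex libraries. Both Dex libraries lay below both vehicle libraries, as for 33.8% of all genes tested, but NR3C1 (log2 fold change -0.17 ± 0.07) did not pass the threshold, with an adjusted p of 0.057. It was called lower when libraries were scaled by size only (adjusted p 0.046) and without the first Dex library (-0.23, adjusted p 0.038). NR3C2, the mineralocorticoid receptor, which also binds glucocorticoids, fell from 24.7 and 23.1 CPM to 11.7 and 11.04 CPM (-1.07 ± 0.11, adjusted p 2e-07). Of 31 tested genes for the GR, its chaperones and its coregulators, 9 were called higher and 5 lower, a share of 45.2% near the 42.3% of all genes, with a median log2 fold change of 0.02. The kinase co-chaperone CDC37 (0.32) and the acetyltransferase CREBBP (0.36) were among those called higher.

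The genes that fell most clearly were led by lipid synthesis. SCD, the desaturase that makes monounsaturated fatty acids, was at 876 and 882 CPM in the vehicle libraries and at 89.9 and 92.6 CPM in the Dex libraries (log2 fold change -3.27 ± 0.07, adjusted p 2.51e-16). INSIG1, which retains the sterol sensor in the endoplasmic reticulum (ER) and is itself a target of SREBP transcription factors, was at 522 and 512 CPM with vehicle and at 93.03 and 104 CPM with Dex (-2.39 ± 0.06, adjusted p 1.88e-15). The 2 groups lay far apart in both genes.
SREBF1, which encodes the SREBP-1 factor, was at 152 and 160.2 CPM with vehicle and at 26.9 and 29.8 CPM with Dex (-2.46 ± 0.09, adjusted p 3.85e-13). SREBF2, which encodes SREBP-2, was also called lower, with a log2 fold change of -0.80 ± 0.06. Of 38 tested genes of sterol and fatty acid synthesis, 34 were called lower and 1 higher, with a median log2 fold change of -1.04 and quartiles of -1.52 and -0.56. The cholesterol pathway enzymes HMGCS1 (-1.25) and SQLE (-1.81), the fatty acid desaturase FADS1 (-2.37) and fatty acid synthase FASN (-0.75) all fell. The 1 member called higher was SCAP, the escort protein of SREBPs (0.27), which like SREBF2 is outside the rule for named genes and was picked once its value was known. The long non-coding RNA OLMALINC, which lies next to SCD on chromosome 10 (chr10:102133333-102148116 and chr10:102106772-102124588, hg19), fell from 19.9 and 19.5 CPM to 1.71 and 1.66 CPM (-3.54 ± 0.14, adjusted p 5.67e-13).

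The other leading lower genes had varied functions. ITGA8, an integrin alpha chain, was at 219 and 220.3 CPM with vehicle and at 56.2 and 56.7 CPM with Dex (-1.96 ± 0.05, adjusted p 4.77e-15). CCL3 (MIP-1 alpha), a chemokine that activates osteoclasts in myeloma bone disease, was at 472 and 447 CPM with vehicle and at 83.6 and 98.6 CPM with Dex (-2.33 ± 0.09, adjusted p 2.66e-13). PECAM1 (CD31), an adhesion molecule, was at 9.07 and 6.20 CPM with vehicle and at 0.363 and 0.756 CPM with Dex (-3.76 ± 0.29, adjusted p 6.96e-09). In each of these the Dex libraries lay well below the vehicle libraries. The extracellular matrix protein fibronectin FN1 (-2.10), the chaperone clusterin CLU (-1.99), NLRP7 (-1.84), LGALS17A (-2.02), the mitochondrial adenylate kinase AK4 (-3.25) and KIAA1549L (-3.02) were also among the leading lower genes.

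The promoter sequences of the leading genes are shown because members of several groups moved together. The 3 higher and 3 lower genes with the smallest p that had an entry are given first, and BUB1 and KIF11, the 2 mitotic genes with the smallest p, were added once their values had been looked at. Each sequence is the 250 bases before the gene's outermost start in RefSeq (GRCh38.p14), 5′ to 3′ on the gene's strand. Capitals mark the letters CCAAT or their reverse complement ATTGG (the box bound by NF-Y, a factor of many proliferation and metabolic promoters) and TTTGAA or TTCAAA (the cell cycle homology region, CHR, of late cell cycle genes). The GR half-site AGAACA or TGTTCT was searched for as well and was in none of the 8.
FKBP5, chr6:35728584-35728833, minus strand: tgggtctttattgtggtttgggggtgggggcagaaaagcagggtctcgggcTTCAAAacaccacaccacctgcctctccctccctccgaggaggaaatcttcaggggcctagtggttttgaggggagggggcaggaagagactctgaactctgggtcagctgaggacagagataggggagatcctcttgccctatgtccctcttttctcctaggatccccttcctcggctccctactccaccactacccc
SMAP2, chr1:40373477-40373726, plus strand: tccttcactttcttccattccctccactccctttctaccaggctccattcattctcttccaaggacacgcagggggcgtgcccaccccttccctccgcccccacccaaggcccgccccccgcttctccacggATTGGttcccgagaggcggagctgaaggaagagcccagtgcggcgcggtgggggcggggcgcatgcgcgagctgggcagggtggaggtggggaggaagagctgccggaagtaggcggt
CXCR4, chr2:136118150-136118399, minus strand: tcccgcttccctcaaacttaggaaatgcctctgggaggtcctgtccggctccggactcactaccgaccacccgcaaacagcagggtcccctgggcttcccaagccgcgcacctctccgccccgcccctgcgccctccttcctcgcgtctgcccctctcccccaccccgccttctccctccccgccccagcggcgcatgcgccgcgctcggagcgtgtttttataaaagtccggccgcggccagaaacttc
SCD, chr10:100346983-100347232, plus strand: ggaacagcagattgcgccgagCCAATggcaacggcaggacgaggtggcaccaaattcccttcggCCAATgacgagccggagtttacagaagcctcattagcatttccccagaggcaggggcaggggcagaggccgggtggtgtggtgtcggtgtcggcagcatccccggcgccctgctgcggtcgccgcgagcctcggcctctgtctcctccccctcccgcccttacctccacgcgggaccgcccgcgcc
INSIG1, chr7:155297628-155297877, plus strand: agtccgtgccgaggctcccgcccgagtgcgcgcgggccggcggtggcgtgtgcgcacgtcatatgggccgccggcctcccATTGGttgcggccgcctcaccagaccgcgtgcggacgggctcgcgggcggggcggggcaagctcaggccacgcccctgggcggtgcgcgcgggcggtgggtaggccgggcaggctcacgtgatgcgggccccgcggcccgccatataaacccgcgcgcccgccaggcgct
ITGA8, chr10:15719923-15720172, minus strand: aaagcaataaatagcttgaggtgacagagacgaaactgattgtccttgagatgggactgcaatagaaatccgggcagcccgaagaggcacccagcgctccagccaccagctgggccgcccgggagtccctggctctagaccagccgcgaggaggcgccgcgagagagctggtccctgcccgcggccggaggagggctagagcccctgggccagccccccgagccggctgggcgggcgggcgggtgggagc
BUB1, chr2:110678064-110678313, minus strand: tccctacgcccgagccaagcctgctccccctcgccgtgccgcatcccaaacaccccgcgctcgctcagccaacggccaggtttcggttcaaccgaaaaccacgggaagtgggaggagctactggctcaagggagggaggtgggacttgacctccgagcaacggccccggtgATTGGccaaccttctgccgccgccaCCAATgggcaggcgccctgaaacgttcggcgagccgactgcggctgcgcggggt
KIF11, chr10:92592880-92593129, plus strand: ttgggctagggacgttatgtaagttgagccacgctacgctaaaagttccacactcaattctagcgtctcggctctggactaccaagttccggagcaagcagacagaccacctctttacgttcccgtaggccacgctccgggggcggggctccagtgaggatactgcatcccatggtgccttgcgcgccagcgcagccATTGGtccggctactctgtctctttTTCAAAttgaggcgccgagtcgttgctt

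Across the 27305 promoters of the reference table, 33.0% held a CCAAT or ATTGG, 13.6% held a CHR and 12.4% held a GR half-site in these 250 bases. Among the 11156 tested genes with an entry, the closer background for the groups below, the shares were 35.6%, 8.9% and 7.9%. Of the tested genes 78.5% had an entry, too few to describe all called genes by promoter, but entries existed for more than 80% of some groups. Of 41 mitotic genes with an entry, 32 (78.0%) held a CCAAT or ATTGG and 22 (53.7%) held a CHR. Of 50 DNA replication genes with an entry, 15 (30.0%) held TTTGGCGC or TTTCCCGC on either strand, forms of the E2F site. Such a site was held by 1.96% of all promoters and by 3.11% of the tested genes with an entry. Of 22 hypoxia-response genes with an entry, 9 (40.9%) held ACGTGC or GCACGT, the core of the HIF site. This core was held by 5.83% of all promoters and by 7.42% of the tested genes with an entry. Of 46 ER secretory genes with an entry, 32 (69.6%) held a CCAAT or ATTGG. Of 36 glucocorticoid-induced genes with an entry, 1 (2.78%) held a GR half-site, and of 51 ribosome biogenesis genes with an entry, 22 (43.1%) held a CCAAT or ATTGG. Of 47 clustered histone genes with an entry, 40 (85.1%) held a CCAAT or ATTGG, 19 (40.4%) a CHR and 14 (29.8%) a GR half-site. The median GC content of these histone sequences was 42.4%, beside 64.4% for the tested genes with an entry and 68.8% for the glucocorticoid-induced genes. The shares thus come from sequences of unlike base composition, for which no correction was made. A match is a stretch of letters and not a shown binding site.

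Genes of proliferation fell together. All 57 tested genes of DNA replication and nucleotide supply were called lower, with a median log2 fold change of -0.84 and quartiles of -1.02 and -0.66, against 21.5% of all genes called lower. CDC6, which loads the replicative helicase, was at 73.2 and 74.4 CPM with vehicle and at 24.6 and 26.7 CPM with Dex (-1.52 ± 0.08, adjusted p 2.7e-11). The ribonucleotide reductase subunit RRM2 was at 489.9 and 487 CPM with vehicle and at 233 and 280.5 CPM with Dex (-0.93 ± 0.09, adjusted p 2.8e-07), and the transcription factor E2F1 had a log2 fold change of -1.13 ± 0.12. In both the Dex libraries were clearly below the vehicle libraries.

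Of 47 tested mitotic and G2/M genes, 46 were called lower and none was called higher, with a median log2 fold change of -1.02 and quartiles of -1.13 and -0.96. BUB1, a kinase of the spindle checkpoint, was at 306 and 277 CPM with vehicle and at 119 and 112 CPM with Dex (-1.34 ± 0.06, adjusted p 5.8e-12). KIF11, the motor that separates spindle poles, was at 204 and 193 CPM with vehicle and at 90.8 and 91.1 CPM with Dex (-1.13 ± 0.06, adjusted p 1.9e-11). MKI67, the proliferation marker Ki-67, was at 1290 and 1228 CPM with vehicle and at 656 and 636 CPM with Dex (-0.96 ± 0.07, adjusted p 2.6e-09). The levels with Dex were near one another in the 2 libraries and lay below the vehicle range, as for 3061 of the 3063 genes called lower.
Of 58 tested clustered histone genes, whose transcripts mostly lack a poly(A) tail and are made in S phase, 53 were called lower and none higher, with a median of -0.87. Single histone genes are near-identical to one another, so reads may be split among them, and the group is better measured than its members.

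The cyclins and inhibitors of G1 did not move as 1 group. Of 25 tested members, 15 were called lower and 3 higher, with a median of -0.36. CCND2, a cyclin D, was at 2361 and 2236 CPM with vehicle and at 1309 and 1362 CPM with Dex (-0.78 ± 0.06, adjusted p 2.3e-09). CCND3, another cyclin D, rose from 27.2 and 27.9 CPM to 88.8 and 104 CPM (1.81 ± 0.08, adjusted p 5.5e-12), and CCND1 fell from 13.6 and 12.7 CPM to 3.73 and 4.19 CPM (-1.73 ± 0.14). The inhibitor CDKN1B (p27) fell by 0.36 on the log2 scale and CDKN1A (p21) by 0.27, so neither inhibitor was higher with Dex. The call of CDKN1A was lost without the first Dex library (-0.20, adjusted p 0.058).

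Glycolysis and the response to low oxygen fell as well. Of 23 tested genes of glucose uptake and glycolysis, 18 were called lower and 1 higher, with a median log2 fold change of -0.57. LDHA, which turns pyruvate into lactate, was at 1080 and 915 CPM with vehicle and at 311 and 355 CPM with Dex (-1.58 ± 0.10, adjusted p 3e-09). GAPDH, often used as a reference gene, was at 1712 and 1617 CPM with vehicle and at 979 and 1076 CPM with Dex (-0.70 ± 0.07, adjusted p 1.7e-07). The vehicle and Dex ranges of both genes were well separated. Within the family of bifunctional enzymes that set the level of fructose 2,6-bisphosphate the members differed in direction: PFKFB2 was the 1 member called higher (80.4 and 83.05 CPM to 341 and 341 CPM, 2.06 ± 0.06), while PFKFB4 fell from 23.96 and 20.5 CPM to 1.503 and 1.76 CPM (-3.76 ± 0.34) and PFKFB3 by 0.69.

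**Figure D3:**
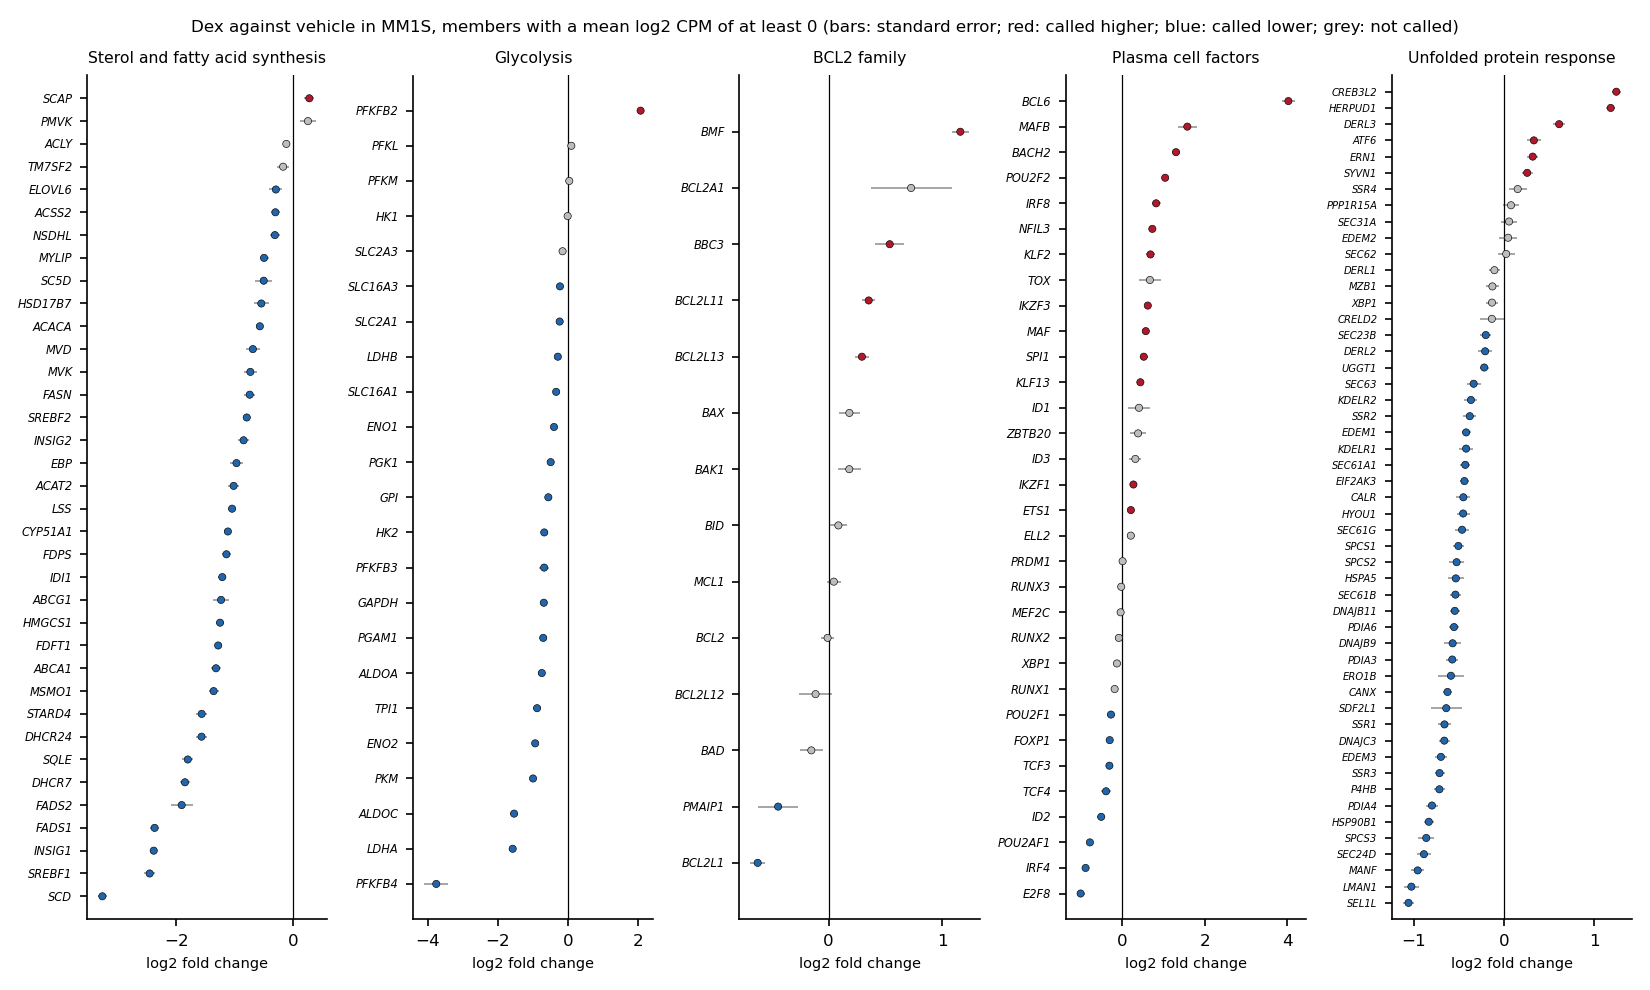
Log2 fold changes with Dex in MM1S (x axis) of members of 5 groups with a mean log2 CPM of at least 0, with bars of 1 standard error. Sterol and glycolysis genes lie mostly left of 0 with SCAP and PFKFB2 as the members called higher, and BMF is the highest and BCL2L1 the lowest of the BCL2 family members plotted.

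Of 27 tested hypoxia-response genes outside glycolysis, 19 were called lower and 4 higher, with a median of -0.59. VEGFA, the angiogenic growth factor, was at 80.5 and 73.4 CPM with vehicle and at 15.3 and 15.9 CPM with Dex (-2.30 ± 0.13, adjusted p 3.3e-10), and the microRNA host MIR210HG fell from 22.04 and 18.05 CPM to 1.45 and 1.82 CPM (-3.61 ± 0.40). PDK1 (-0.89), NDRG1 (-1.23), BNIP3L (-1.06) and ANKRD37 (-1.68) fell too. CXCR4 and DDIT4, which are induced by hypoxia in other settings and are also glucocorticoid targets, were among the 4 members called higher.
Of 32 tested ATF4 amino acid response genes, 19 were called lower and 3 higher, with a median of -0.45. SLC7A11, the cystine transporter, fell from 7.19 and 11.4 CPM to 1.04 and 1.31 CPM (-2.97 ± 0.26), and PSAT1 (-1.26) and PHGDH (-1.48), enzymes of serine synthesis, fell, as did ATF4 itself (-0.50). DDIT3 (CHOP), TRIB3 and SESN2 of the same list were not called, with log2 fold changes of 0.03, 0.10 and 0.06. Of 20 cytosolic tRNA synthetase genes 7 (35%) were called lower, led by AARS (-0.94), and 3 (15%) higher, a share called of 50%. Of 31 genes of the pentose phosphate pathway and of one-carbon and base synthesis 16 (51.6%) were lower and 2 (6.45%) higher. Over all genes tested 21.5% were called lower and 20.8% higher, a share called of 42.3%.

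Genes of the secretory pathway, which plasma cells use heavily to make antibody, were mostly lower. Of 52 tested ER secretory and unfolded protein response genes, 37 were called lower and 6 higher, with a median log2 fold change of -0.45. HSP90B1 (GRP94), an ER chaperone, was at 1669 and 1591 CPM with vehicle and at 895 and 933 CPM with Dex (-0.83 ± 0.05, adjusted p 4.7e-10). SEL1L, a subunit of the ER degradation ligase, was at 931 and 857 CPM with vehicle and at 445 and 413 CPM with Dex (-1.06 ± 0.06, adjusted p 2.5e-10), and HSPA5 (BiP) fell by 0.53. HERPUD1, another component of ER degradation, rose from 660.0 and 688 CPM to 1562 and 1498 CPM (1.18 ± 0.05, adjusted p 2.2e-12), and the ER-tethered transcription factor CREB3L2 rose as well (1.24 ± 0.05). XBP1, the driver of the secretory programme, was at 865 and 832 CPM with vehicle and at 722 and 823 CPM with Dex and was not called (-0.13 ± 0.07, adjusted p 0.12), though it was called lower with scaling by library size only (adjusted p 0.035) and without the second Dex library (-0.24, adjusted p 0.014).
Of 42 proteasome subunit genes, 17 (40.5%) were called lower and 1 (2.38%) higher, a share called of 42.9% near the 42.3% of all genes. Their median was -0.15 and lay between -0.24 and -0.08 when 1 of the 4 libraries was left out. Among 61 ribosome biogenesis genes 25 (41.0%) were called higher and 1 (1.64%) lower, a share called of 42.6%, with a small median of 0.16. The RNA polymerase I subunit POLR1A (0.53) and the acetyltransferase NAT10 (0.43) had the smallest p values among them. Few cytosolic (5 higher and 3 lower of 83) or mitochondrial (8 and 7 of 75) ribosomal protein genes were called. Of 80 nuclear-encoded respiratory chain subunits 23 (28.75%) were lower and 1 (1.25%) higher, a share called of 30%, below that of all genes.

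**Figure D4:**
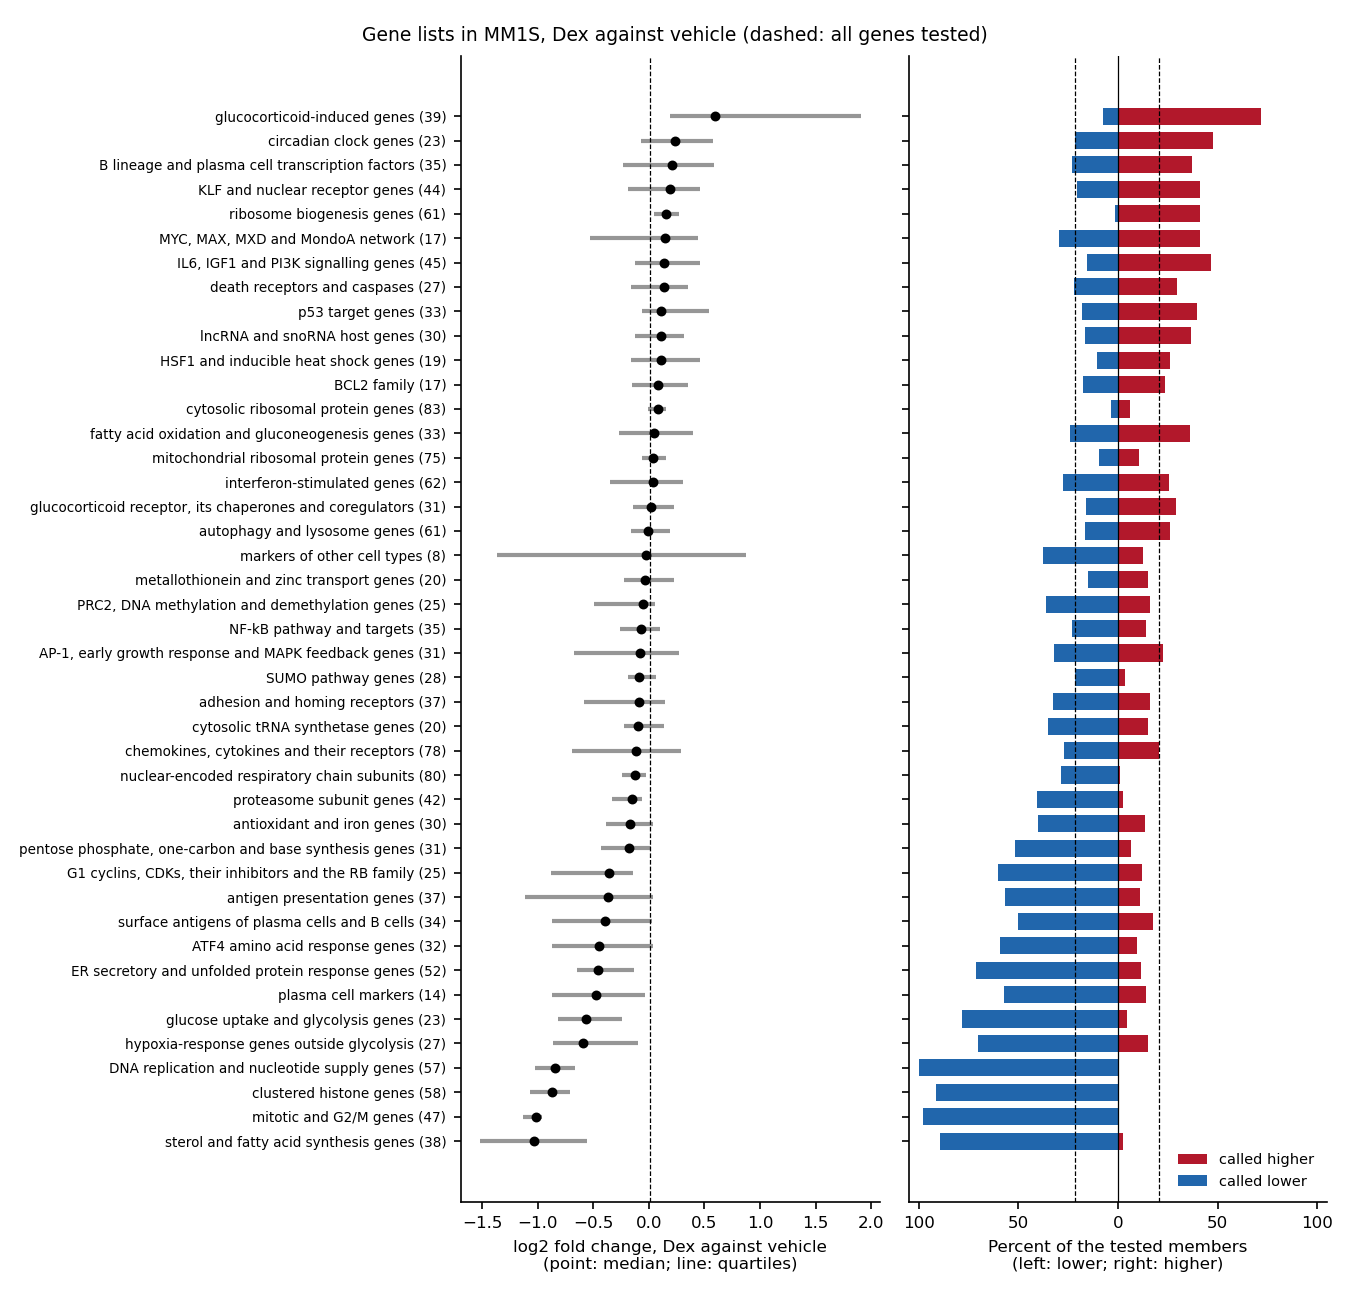
Left, the median (point) and quartiles (line) of the log2 fold change with Dex in MM1S for the tested members of each of 43 gene lists, with the number tested in brackets. Right, the percent of those members called higher (red) or lower (blue). Dashed lines give the same over all 14215 genes. The glucocorticoid-induced list has the highest median (0.59), and sterol synthesis (-1.04), mitotic (-1.02), histone (-0.87) and replication genes (-0.84) have the lowest.

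Plasma cell identity genes moved in both directions. IRF4, a transcription factor on which myeloma cells depend, was at 1197 and 1254 CPM with vehicle and at 651 and 667 CPM with Dex (log2 fold change -0.90 ± 0.06, adjusted p 5.9e-10). Its partner POU2AF1 (OCA-B) fell by 0.79. PRDM1 (BLIMP-1), the master regulator of plasma cells, was at 727 and 729 CPM with vehicle and at 759 and 699.8 CPM with Dex and was not called (0.00 ± 0.05, adjusted p 0.97).
BACH2, a repressor that like BCL6 belongs to the B cell stage, rose from 56.1 and 66.3 CPM to 163 and 138 CPM (1.30 ± 0.09, adjusted p 9.3e-10). The lymphoid factor IKZF3 (Aiolos), a target of immunomodulatory drugs in myeloma, rose from 576 and 573 CPM to 879 and 880.0 CPM (0.61 ± 0.05, adjusted p 1.6e-08), and MAF, the oncogene overexpressed in this line, from 1466 and 1555 CPM to 2207 and 2264 CPM (0.57 ± 0.05, adjusted p 1.2e-07). In total 13 of 35 tested B lineage and plasma cell factors were called higher and 8 lower, with a median of 0.20.

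Surface antigens were more often lower than higher. Of 34 tested antigens 17 were called lower and 6 higher, with a median of -0.39. SLAMF7, the target of elotuzumab, was at 758 and 755 CPM with vehicle and at 482 and 468 CPM with Dex (-0.67 ± 0.05, adjusted p 6e-09). TNFRSF17 (BCMA) was at 259 and 254 CPM with vehicle and at 158 and 175 CPM with Dex (-0.62 ± 0.07), GPRC5D fell by 0.94 and CD38, the target of daratumumab, fell as well (-1.15 ± 0.11). SDC1 moved the other way, from 495 and 500.4 CPM to 667 and 762 CPM (0.52 ± 0.07, adjusted p 8e-06).
Of 37 tested antigen presentation genes 21 were called lower and 4 higher. The class II genes HLA-DRA (287 and 259.7 CPM to 86.3 and 89.5 CPM, -1.64 ± 0.07) and HLA-DPA1 (-1.93 ± 0.11), the invariant chain CD74 (-1.11 ± 0.06) and CIITA, the factor that switches class II genes on (56.9 and 57.2 CPM to 22.8 and 22.6 CPM, -1.33 ± 0.10), fell together. B2M of class I fell by 0.36, and the peptide trimming enzyme ERAP2 rose (1.21 ± 0.06). HLA genes are similar to one another, so reads may be split among them.

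Some adhesion and cytokine genes changed by large amounts, in both directions. Of 37 tested adhesion and homing receptors 12 were called lower and 6 higher, a share of 48.6% beside the 42.3% over all genes. ITGB7, which pairs with ITGA4 to bind the mucosal addressin and is a target of MAF, was at 14710 and 14794 CPM with vehicle and at 13160 and 14749 CPM with Dex and was not called (-0.08 ± 0.06, adjusted p 0.33) except as lower with offsets for GC content, and ITGA4 fell by 0.32. Of 78 tested chemokines, cytokines and receptors 16 (20.5%) were called higher and 21 (26.9%) lower. These shares were close to the 20.8% and 21.5% over all genes. CXCL13, the chemokine that attracts B cells to follicles, had 3 counts in each vehicle library and 173 and 182 counts in the Dex libraries (0.141 and 0.154 to 8.97 and 9.18 CPM, adjusted p 4.7e-10), and CXCL10, an interferon-induced chemokine, fell from 4.32 and 3.95 CPM to 0.518 and 0.706 CPM (-2.74 ± 0.31). TGFBR2, a receptor for TGF-beta, rose by 0.92.

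Of the BCL2 family, which sets the threshold for apoptosis, 17 members were tested, 4 were called higher and 3 lower, a share of 41.2% beside 42.3% of all genes, so the share called was near the background. BMF, a BH3-only activator of apoptosis, was at 205 and 235 CPM with vehicle and at 468 and 515 CPM with Dex (1.16 ± 0.07, adjusted p 5.1e-10). BCL2L11 (BIM), the BH3-only gene best known from glucocorticoid-treated lymphoid cells, rose less, from 226 and 240.2 CPM to 308 and 287 CPM (0.35 ± 0.06, adjusted p 5.5e-05). BCL2L1 (BCL-XL), an apoptosis inhibitor, was at 443 and 469 CPM with vehicle and at 279 and 312 CPM with Dex (-0.62 ± 0.06, adjusted p 2.7e-07).
For these 3 called genes the groups did not overlap, as was so for nearly all called genes and for 68.8% of all genes tested. BCL2 (-0.01, adjusted p 0.91) and MCL1 (0.05, adjusted p 0.57), the other main inhibitors, were not called. BBC3 (PUMA) was called higher (0.54 ± 0.13), with the call lost without the second Dex library (0.29, adjusted p 0.093), and PMAIP1 (NOXA) was called lower at an adjusted p of 0.048, with the call lost by DESeq2 (0.13), in fits of the 4 or the 8 MM1S libraries alone (0.094 and 0.095), without the second vehicle or Dex library (0.35 and 0.40) and with offsets for GC content (0.17). The third member called lower was HRK, another BH3-only gene, picked once its value was known, with 9 counts in each vehicle library and 1 count in each Dex library.
Of 27 tested death receptor and caspase genes 8 were called higher and 6 lower, a share of 51.9%. CFLAR (c-FLIP), which blocks caspase-8, rose from 258 and 263 CPM to 671 and 571 CPM (1.25 ± 0.07), CASP6 rose by 1.03 and the apoptosis inhibitor BIRC5 (survivin), which is also a mitotic gene, fell by 0.97.

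Signalling genes of cytokine and growth factor pathways included many that rose. Of 45 tested IL6, IGF1 and PI3K genes 21 were called higher and 7 lower, with a median of 0.14. IL6ST (gp130), the signalling chain of the receptor for the myeloma growth factor IL6, was at 832 and 786 CPM with vehicle and at 2662 and 2211 CPM with Dex (1.59 ± 0.12, adjusted p 8.6e-08), and IL6R rose by 0.42. INSR (1.09), IGF1R (0.46) and IRS2 (0.34) rose, as did the PI3K subunit PIK3R1 (1.01), and the call of IRS2 was lost without the first vehicle library (0.21, adjusted p 0.12).
Of 35 tested NF-kB pathway and target genes 5 were called higher and 8 lower, a share of 37.1% that was below the 42.3% of all genes. TNFAIP3 was not called, and NFKB2 (-0.15, adjusted p 0.099) was called lower with scaling by library size only (adjusted p 0.037), without the second Dex library (-0.23, adjusted p 0.039) and with offsets for GC content (-0.29, adjusted p 5.1e-06). Of 31 AP-1, early growth response and MAPK feedback genes 7 (22.6%) were higher and 10 (32.3%) lower, beside 20.8% and 21.5% of all genes. SPRY1, an inhibitor of growth factor signalling, was higher (1.51 ± 0.09), and ETV5 (-1.38 ± 0.08) and FOS (-0.85 ± 0.12) were lower. EGR1 was called lower (-0.68) but not without the second vehicle library (-0.28, adjusted p 0.29), and JUN was called lower at an adjusted p of 0.045 but not without either vehicle library (0.13 and 0.14) or the first Dex library (0.38). MYC was at 354 and 356 CPM with vehicle and at 456 and 471 CPM with Dex, a rise of 0.39 ± 0.06 (adjusted p 5.5e-05).

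The remaining lists are given more briefly, and over all genes tested 20.8% were called higher and 21.5% lower. Of 23 tested clock genes 11 were called higher and 5 lower, and BHLHE40, a clock repressor also induced by hypoxia, fell by 1.70 (SE 0.12). KLF and nuclear receptor genes (18 higher and 9 lower of 44), p53 target genes (13 and 6 of 33), fatty acid oxidation and gluconeogenesis genes (12 and 8 of 33) and long non-coding and snoRNA host genes (11 and 5 of 30) had more members higher than lower. CPT1A, which brings fatty acids into mitochondria, rose by 0.91 while ACSL3 fell by 1.23. GAS5, a non-coding RNA that can bind the GR, rose from 158 and 154 CPM to 195 and 204 CPM (0.36 ± 0.06). NEAT1 was at 3339 and 3325 CPM with vehicle and at 10101 and 5920 CPM with Dex, so the Dex libraries lay far from each other as well as above the vehicle libraries (1.27 ± 0.27, or 0.83 without the first Dex library).
PRC2 and DNA methylation genes were lower in 9 and higher in 4 of 25 cases, with EZH2 (-0.77) and DNMT3B (-1.21) lower. Antioxidant and iron genes were lower in 12 and higher in 4 of 30, led by the transferrin receptor TFRC (-0.86). SUMO pathway genes were lower in 6 (21.4%) and higher in 1 of 28, with the share lower near the 21.5% of all genes. Their share called was 25%, below the 42.3% of all genes. The subunits of the SUMO-activating enzyme, SAE1 (-0.45) and UBA2 (-0.40), were among the 6. Of 62 interferon-stimulated genes 16 were higher and 17 lower, a share called of 53.2%. For MYC and MondoA network genes the counts were 7 and 5 of 17 (70.6%). Autophagy and lysosome genes, with 16 higher and 10 lower of 61 (42.6%), were near the 42.3% of all genes. Heat shock genes (5 and 2 of 19, 36.8%) and metallothionein and zinc genes (3 and 3 of 20, 30%) were below that share. Of 14 plasma cell markers 8 were lower and 2 higher, and of 8 tested markers of other cell types 3 were lower and 1 higher.

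The same step was measured in 4 further MM1S libraries that share none with those above, by comparing the combo with TAK-981 alone. In that comparison 4990 genes (35.1%) were called, 2063 (14.5%) higher and 2927 (20.6%) lower. Of the 348 genes called higher by at least 1 on the log2 scale with Dex alone, 323 (92.8%) were also higher with Dex on top of TAK-981, and 238 (68.4%) were called so. Of the 733 genes called lower by at least 1, 690 (94.1%) were lower and 502 (68.5%) were called so. Of all genes tested, 68.8% had the same sign in the 2 comparisons, and 29.5% were called in that direction for combo over TAK-981. Of the genes called higher at any size with Dex alone, 78.2% were also higher and 40.3% were called so. Of those called lower at any size, 87.1% were lower and 56.0% were called so. Across all genes, which are not independent replicates, Pearson's r between the 2 sets of log2 fold changes was 0.62.
FKBP5 had a log2 fold change of 6.19 in the presence of TAK-981 beside 4.60 in its absence, and SCD one of -2.08 beside -3.27. The starting levels differed, with mean FKBP5 at 68.8 CPM and SCD at 879 CPM with vehicle, and at 42.0 and 207 CPM with TAK-981 alone. The end levels were 1663 and 91.3 CPM with Dex alone and 3066 and 49.0 CPM with the combo, so SCD was lowest with the combo. GRHL3, an epithelial transcription factor, was an exception among the leading genes: it rose from 81.8 and 85.4 CPM to 305 and 302 CPM with Dex alone, and in the presence of TAK-981 its change was -0.16 (adjusted p 0.039). Among the other named genes HMOX1 (0.97 and -0.84), MIAT (0.40 and -0.46), PLK2 (0.82 and -0.26), MXD4 (0.58 and -0.20) and EGR1 (-0.68 and 1.11) were called in opposite directions in the 2 comparisons. TAP1 (0.20 and -0.47) and PMAIP1 (-0.44 and 0.59) were too, but their calls with Dex alone were lost under 7 and 6 of 12 alternatives. The difference between the comparisons was not tested.

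**Figure D5:**
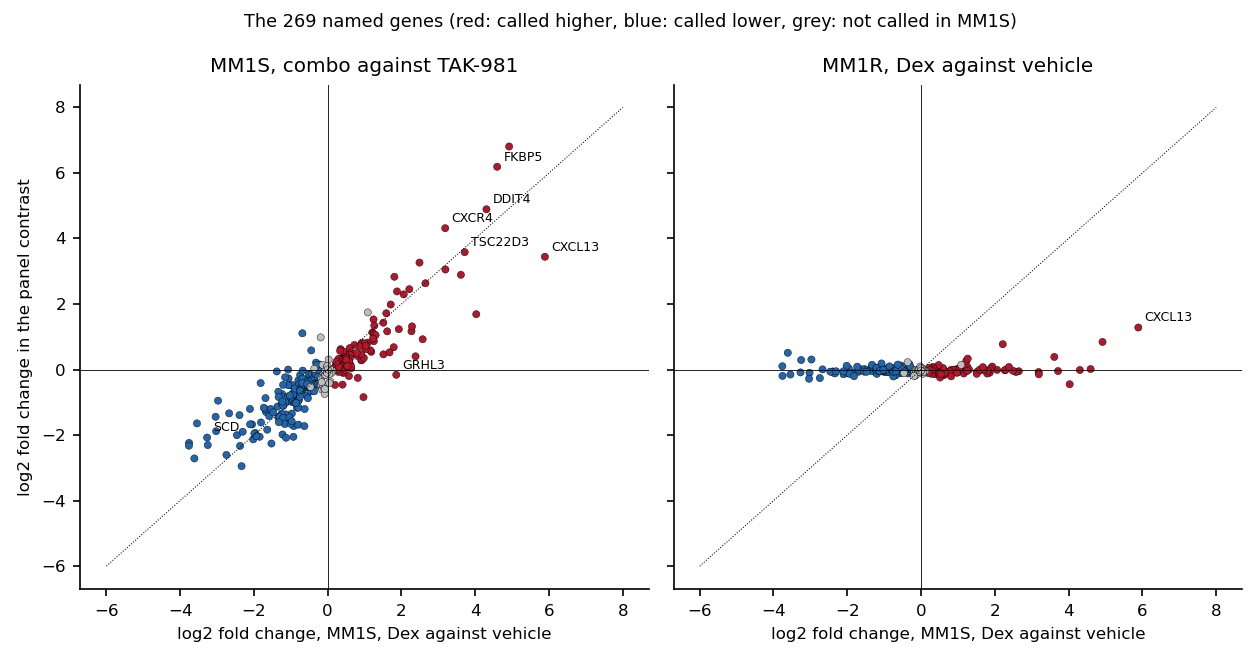
Log2 fold changes of the 269 named genes with Dex alone in MM1S (x axis) against those for combo over TAK-981 in MM1S (left) and Dex over vehicle in MM1R (right), with the dotted line marking equal values. On the left most points share the sign of the change with Dex alone, some far from the line such as BCL6 (4.03 and 1.69) and GRHL3 (1.86 and -0.16), and on the right they lie along 0, where CXCL13 (1.28, not called) is the highest.

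In MM1R, the resistant line, Dex left no gene called by edgeR (0%), with 395 genes at an unadjusted p under 0.05, and DESeq2 called 0 as well with 159 genes at an unadjusted p under 0.05. Without the first MM1R vehicle library 9 genes were called, and without the first MM1R Dex library 1 was. FKBP5 was at 93.0 and 96.4 CPM in vehicle-treated MM1R and at 92.5 and 99.0 CPM in Dex-treated MM1R, and the 4 values overlapped. The test of the difference between the Dex responses of the 2 lines called 3993 genes (28.1%), of which 1858 had the higher response in MM1S and 2135 the lower. FKBP5 differed by 4.58 ± 0.09 between the lines (adjusted p 1.48e-16) and SCD by -3.18 (adjusted p 5.3e-14).

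The direction of the change in MM1S was related to the GC content of the transcript. Of the tested genes, 13745 (96.7%) had a GC content from the longest transcript of their symbol in the GENCODE annotation. In the fifth of genes with the lowest GC content 9.02% were called higher and 30.5% lower, and in the fifth with the highest 30.2% were higher and 13.8% lower. The correlation across genes of GC content with the log2 fold change was 0.13 in this comparison, -0.06 for combo over TAK-981 and -0.06 for Dex in MM1R. Libraries of 1 group also differed by GC content, with r = -0.43 for the difference between the Dex libraries and -0.25 for that between the vehicle libraries. With offsets that remove each library's trend with GC content, an alternative added after the data were seen, 6419 of 13745 genes were called. Of these, 5238 were among the 6017 called in the main fit. With the offsets 35 of the 38 sterol genes and all 57 replication genes were called lower, and the median of the glucocorticoid-induced list was 0.49.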

How the data were processed

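Total RNA from MM1S and MM1R was sequenced after ribosomal RNA depletion. The authors deposited raw counts per gene, with hg19 gene coordinates and no normalisation. The submitters' processing notes name bcl2fastq 2.18.0.12, STAR 2.6.0, HTSeq 0.6.0, edgeR 3.28.1 and hg19. The strand setting is not given in the sources used here, so overlapping and antisense genes are uncertain.

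Counts of all 16 libraries were fitted in R 4.3.3 with edgeR 4.0.16 (TMM scaling, filterByExpr by group, robust quasi-likelihood F test, 1 term per group, 8 residual degrees of freedom). P values were adjusted by the Benjamini-Hochberg method over 14215 genes. Standard errors are the log2 fold change divided by the square root of F. CPM values are TMM-normalised without a prior count. Each group had 2 libraries. The 4 MM1S libraries compared held 18880189 to 20644510 counts, so genes with few counts have wide errors. The fit was also run on simulated data, and the outcome is not given here.

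Named genes were the 12 with the smallest p and the 8 with the largest change in each direction (absolute log2 fold change of at least 1, with a floor on mean level), up to 4 per gene list, and a set of textbook genes. The members and lists were chosen with earlier results of these data known. Alternatives were RLE scaling, library size only, no filter, DESeq2 1.42.0, fewer libraries, a replicate block, leaving out each library, and offsets by GC content, the last chosen after seeing the data. Promoters came from RefSeq (GRCh38.p14) by symbol, and no coordinate was moved between builds. A few genes are not reported here.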

Additional observations from a re-analysis of the deposited data

Results flagged for a closer look

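The Dex response differed between the sensitive and the resistant line for 3993 genes (28.1%) by edgeR's test of the difference itself. The values here are the log2 response in MM1S minus that in MM1R, each estimated from 2 libraries per group. Among the leading genes that rose in MM1S the difference was above 0 for FKBP5 (4.58), BCL6 (4.48), DDIT4 (4.32), ZBTB16 (4.08), TSC22D3 (3.76), SLC22A23 (3.34), CXCR4 (3.26), DPEP1 (3.23), SMAP2 (2.70), FBXO32 (2.65), FAR2 (2.53), ZC3H12A (2.30), NUDT16 (2.30), PFKFB2 (2.07), GRHL3 (1.96), NUAK1 (1.91) and PTK2B (1.63). Among the leading genes that fell it was below 0 for MIR210HG (-4.12), PFKFB4 (-3.86), PECAM1 (-3.56), AK4 (-3.54), OLMALINC (-3.39), SLC7A11 (-3.28), SCD (-3.18), KIAA1549L (-2.92), SREBF1 (-2.39), INSIG1 (-2.33), FADS1 (-2.28), CCL3 (-2.22), LGALS17A (-2.13), ITGA8 (-1.99), FN1 (-1.96), CLU (-1.87), NLRP7 (-1.73) and HLA-DRA (-1.64). The genes were chosen for their change in MM1S, which is one side of this difference, so the sizes are a description. MM1S and MM1R are 1 line each, so the line and its sensitivity to glucocorticoids cannot be told apart.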

How the results depend on the processing

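With RLE scaling 6017 genes were called in MM1S, with library size only 5947, with no filter 6179, with DESeq2 5181, with the 4 compared libraries alone 5263, with the 8 MM1S libraries 4770, with offsets by GC content 6419, and without 1 library between 4305 and 5593. Requiring a change of at least 1 on the log2 scale left 1081 genes, 918 for the difference between lines and 980 for combo over TAK-981. Library size only moved the share called higher for combo over TAK-981 to 49.7%. The main fit did not pair the libraries by replicate number. The r of replicate deviations was 0.116 between vehicle and Dex in MM1S and 0.251 between TAK-981 and combo. Over all pairs of MM1S groups it ran from 0.053 to 0.448, the highest between TAK-981 and Dex. A replicate block called 7022 genes, 6005 of them shared, and 6059 genes for combo over TAK-981. The block called NR3C1 (edgeR adjusted p 0.0070), XBP1 (0.039) and NFKB2 (0.011) lower. For Dex in MM1R no filter gave 30 calls and leaving out 1 library 0 to 9. With no filter the list medians were 0 for cytokines, 0.074 for KLF and nuclear receptor genes, -0.62 for plasma cell markers and 0.32 for other cell types. With offsets by GC content they were 0.49 for glucocorticoid-induced genes, 0.039 for death receptors and caspases, -0.23 for AP-1, -0.18 for adhesion, 0.049 for metallothioneins, 0.11 for KLF and nuclear receptor genes and -0.55 for plasma cell markers, and BIRC3 turned from -0.06 to 0.12 (adjusted p 0.027). Without 1 library medians ran from 0.46 to 0.70 for glucocorticoid-induced genes, 0.021 to 0.16 for the BCL2 family, -0.23 to -0.0097 for AP-1, -0.96 to -0.77 for replication, -0.43 to -0.29 for G1, -0.022 to 0.15 for ribosomal proteins, -0.22 to -0.063 for the respiratory chain, -0.66 to -0.50 for hypoxia, -0.29 to -0.13 for base synthesis, -1.15 to -0.96 for sterol synthesis, -0.46 to -0.37 for ATF4, -0.24 to -0.079 for the proteasome, 0.13 to 0.27 for KLF and nuclear receptor genes, -0.050 to 0.073 for fatty acid oxidation, -1.08 to -0.75 for histones, -0.28 to -0.093 for antioxidants, -0.53 to -0.40 for plasma cell markers and -0.27 to 0.57 for other cell types. The cause of these shifts was not tested.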

Other observations

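Genes outside the lists, chosen after their values were seen, moved by large amounts in both directions with Dex in MM1S. ZFP36L2, an RNA-binding protein that destabilises AU-rich mRNAs, was at 292 and 302 CPM with vehicle and at 879.7 and 885 CPM with Dex, a log2 fold change of 1.57 ± 0.05 (SE). FZD4, a WNT receptor, rose from 3.10 and 2.87 CPM to 16.01 and 17.1 CPM (2.47 ± 0.15), and the chemokine receptor CX3CR1 rose by 1.43 on the log2 scale.

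TLR7, a receptor for single-stranded RNA, was at 43.5 and 40.9 CPM with vehicle and at 12.7 and 13.2 CPM with Dex (-1.70 ± 0.09), and NOD2, a sensor of bacterial peptides, was at 38.44 and 38.4 CPM with vehicle and at 12.9 and 14.1 CPM with Dex (-1.51 ± 0.09). The caveolin gene CAV1 fell from 126 and 122 CPM to 55.3 and 48.7 CPM (-1.26 ± 0.09), and its neighbour CAV2 fell by 1.33. DKK1, a secreted WNT inhibitor of myeloma bone disease, was low in all 4 libraries and fell from 4.32 and 3.38 CPM to 1.76 and 1.36 CPM (-1.31 ± 0.24, edgeR adjusted p 0.00024). For each gene given here by library the Dex and vehicle values did not overlap, as was so for 68.8% of all genes tested.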
